A study of Homo sapiens with 6 samples.

Results

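The proteasome genes were taken as the rows of the deposited count table whose symbol is PSM, a letter from A to G and a number. This rule found 46 of the 33542 genes in the table, and all 46 passed the filter on low counts. They comprised 14 standard 20S core genes (7 alpha, 7 beta), 3 immunoproteasome genes, 9 genes of the 19S base, 8 of the 19S lid, 5 of activators and an inhibitor and 7 of assembly chaperones. Pseudogenes, antisense genes and PSMC3IP, which encodes a meiotic recombination factor and no proteasome subunit, do not match it. PSMA8 and PSMB11 were not analysed here.

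The proteasome is the protease that degrades proteins tagged with ubiquitin chains. Its barrel-shaped 20S core is built of rings of alpha subunits, which gate the entrance, and rings of beta subunits, 3 of which (PSMB5, PSMB6 and PSMB7) cut peptide bonds. The 19S cap docks on the core: its base holds a ring of ATPases that unfold substrates, and its lid removes the ubiquitin chain. Interferon induces PSMB8, PSMB9 and PSMB10, which take the place of PSMB5, PSMB6 and PSMB7 and shift the peptides made towards those that MHC class I presents. In human cells the transcription factor NFE2L1 raises proteasome genes together when proteasome activity is short.

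RNA was sequenced from T24, an established line from a human bladder carcinoma, transfected by lipofection with siRNA, a short double-stranded RNA that triggers cleavage of a matching transcript, directed at TRAIP (siTRAIP, 3 libraries) or with a control siRNA (siNC, 3 libraries). TRAIP is a RING-type ubiquitin ligase, and the series title ties it to a proteasome-targeting ubiquitin chain on MYC, so the comparison shows whether the genes of the degradation machinery changed in transcript level with the knockdown. All libraries were of this 1 line, without a further allele or agent in the labels. The labels do not state whether replicates were separate cultures. A p-value here therefore reflects the spread among these libraries, possibly technical.

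Total gene counts were 39111793 to 70439496 in siTRAIP libraries and 54818483 to 58066330 in siNC libraries, of which the proteasome genes took 0.761% to 0.780% in siTRAIP and 0.790% to 0.810% in siNC libraries. TRAIP itself had 12.5, 14.7 and 11.6 CPM (read counts divided by the TMM-scaled library size) in siTRAIP libraries, against 26.6, 28.3 and 28.4 CPM in siNC libraries, a log2 fold change of -1.11 (± 0.07 SE, adjusted p by edgeR = 6.74e-10). The epithelial markers KRT8, KRT18, KRT7 and EPCAM were all detected and summed to 3154 to 3443 CPM in siTRAIP and 3458 to 3516 CPM in siNC libraries. Of the urothelial markers, PPARG had 17.96 to 20.3 CPM in siTRAIP and 17.5 to 19.5 CPM in siNC libraries, whereas UPK2 had at most 1.055 CPM in siTRAIP and 0.994 CPM in siNC libraries, and GATA3, UPK1A and UPK3A were lower still, with UPK1A and UPK3A at 0 in some libraries. The 4 fibroblast markers in the table summed to 120 to 125 CPM in siTRAIP and 122 to 124 CPM in siNC libraries, nearly all from COL6A2, and COL1A1 had 1.03, 0.923 and 4.26 CPM in siTRAIP libraries, against 1.05, 1.08 and 1.11 CPM in siNC libraries. The 3 leukocyte markers in the table summed to 38.8 to 46.1 CPM in siTRAIP and 34.1 to 36.0 CPM in siNC libraries, and 2 endothelial ones to at most 0.132 CPM in siTRAIP and 0.0361 CPM in siNC libraries. The part of these differences in the results was not tested. In bulk RNA, fewer cells of a kind and less RNA per cell cannot be told apart. Replicate 3 of siTRAIP stood apart from the other libraries of its group (chi-square of the counts divided by its degrees of freedom, 17.4 and 18 against it and 3.35 between the other two), and the calls of proteasome genes that changed without it are given with the genes.

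The 46 genes did not have equal transcript levels. On the per-length scale (TMM-scaled CPM per kilobase of listed gene length), PSMD2, a scaffold subunit of the base that receives ubiquitinated substrates, was highest at 365 ± 7.81 in siTRAIP and 386 ± 6.82 in siNC cells (SD, n = 3 each). PSMC3, an ATPase of the base (266 ± 5.32 in siTRAIP, 228 ± 3.70 in siNC), and PSMA7, an alpha ring subunit (238 ± 11.6 in siTRAIP, 254 ± 9.69 in siNC), followed. The lowest were the chaperone gene PSMG4 (0.634 ± 0.111 in siTRAIP, 0.663 ± 0.0620 in siNC) and PSMB9 (1.26 ± 0.155 in siTRAIP, 1.19 ± 0.121 in siNC), a level range of 576-fold in siTRAIP and 583-fold in siNC cells. Within the standard core, PSMB2, a non-catalytic beta subunit, stood at 2.61 ± 0.147 in siTRAIP and 2.69 ± 0.0981 in siNC cells. Over the 31 subunit genes of core, base and lid, without chaperones, the level range was narrower, at 143-fold in siNC cells. PSMD2 alone held 25.4% of all proteasome counts in siTRAIP and 26.9% in siNC libraries. Of the 46 genes, 44 lay above the median level of the 18685 tested genes in both groups and 19 lay in the top 10%. Levels and gene length among the 46 had a Spearman rho of -0.20 per kilobase and 0.19 in CPM (siNC libraries, which share depth and the listed lengths).

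**Figure D1:**
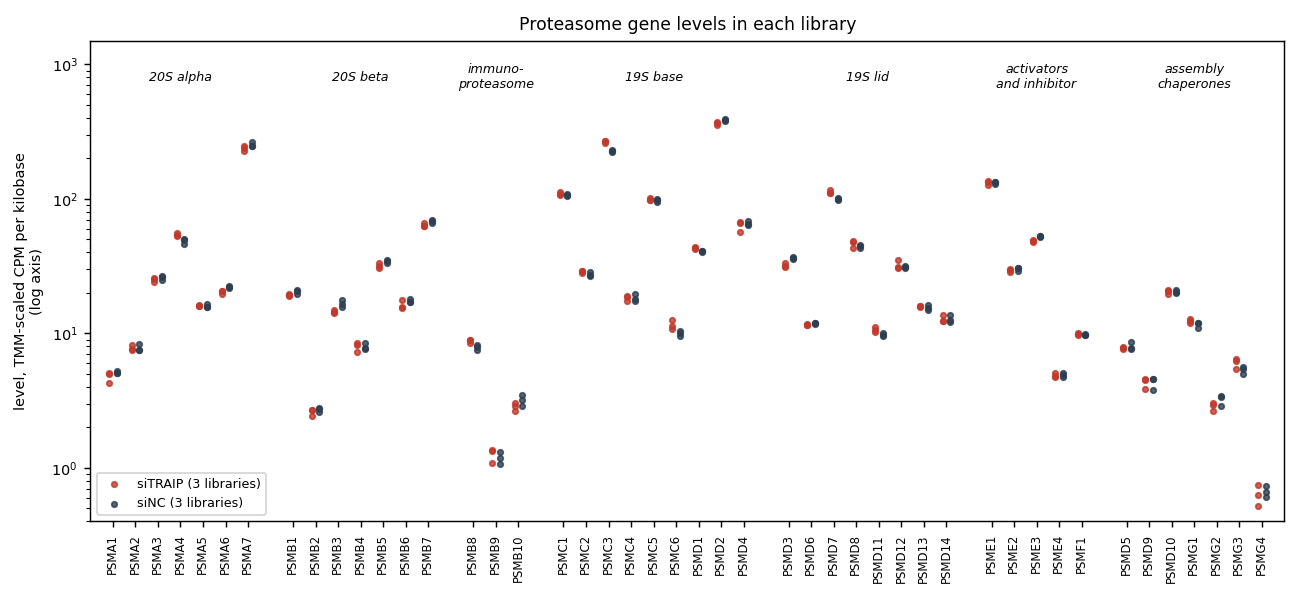
Level of each of the 46 proteasome genes (y axis, TMM-scaled CPM per kilobase, log axis) in the 3 siTRAIP and 3 siNC libraries, grouped by role along the x axis; each point is 1 library. Levels span 576-fold in siTRAIP and 583-fold in siNC cells between PSMD2 and PSMG4, and the points of both groups lie close together for each gene.

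With TRAIP knockdown most proteasome genes differed little, and those called differed in both directions. Of the 46 genes, 4 rose and 3 fell (edgeR quasi-likelihood test, adjusted p of 0.05 over 18685 genes), which is 15.2% of them, against 12.8% of all tested genes, 7.47% higher and 5.34% lower. With all libraries in the fit, the share of proteasome genes called was thus near the background. The rises were in PSMC3, PSMC6, PSMD7 and PSMA4 and the falls in PSMD3, PSMA6 and PSME3. Their sizes were modest, with fitted ratios from 0.881 (PSMD3) to 1.17 (PSMC3). For 37 of the 46 genes the fitted level in siTRAIP cells was within 10% of that in siNC cells. The median log2 fold change of the 46 was -0.004, against -0.002 for all tested genes, and the median absolute log2 fold change was 0.081, against 0.125. The background was not matched for level, and 44 of the 46 lay at or above the median level of tested genes. An unadjusted p under 0.05 was reached by 12 of the 46, against 24.8% of all tested genes. Groups did not overlap for 14 of the 46 (30.4%, against 29.1% of all tested genes). For the 39 genes not called, every 95% confidence interval of the log2 fold change lay between -0.37 and 0.36. Calls depended on single libraries: 3 genes passed without siTRAIP replicate 1, 4 without replicate 2 and 12 without replicate 3, and 2, 5 and 3 genes passed without siNC replicates 1, 2 and 3. The number called among all tested genes also differed between these fits. It ran from 1480 without siNC replicate 1 to 2622 without siTRAIP replicate 3, against 2393 with all libraries. Whether the share of proteasome genes departed from the background in these fits was not tested.

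**Figure D2:**
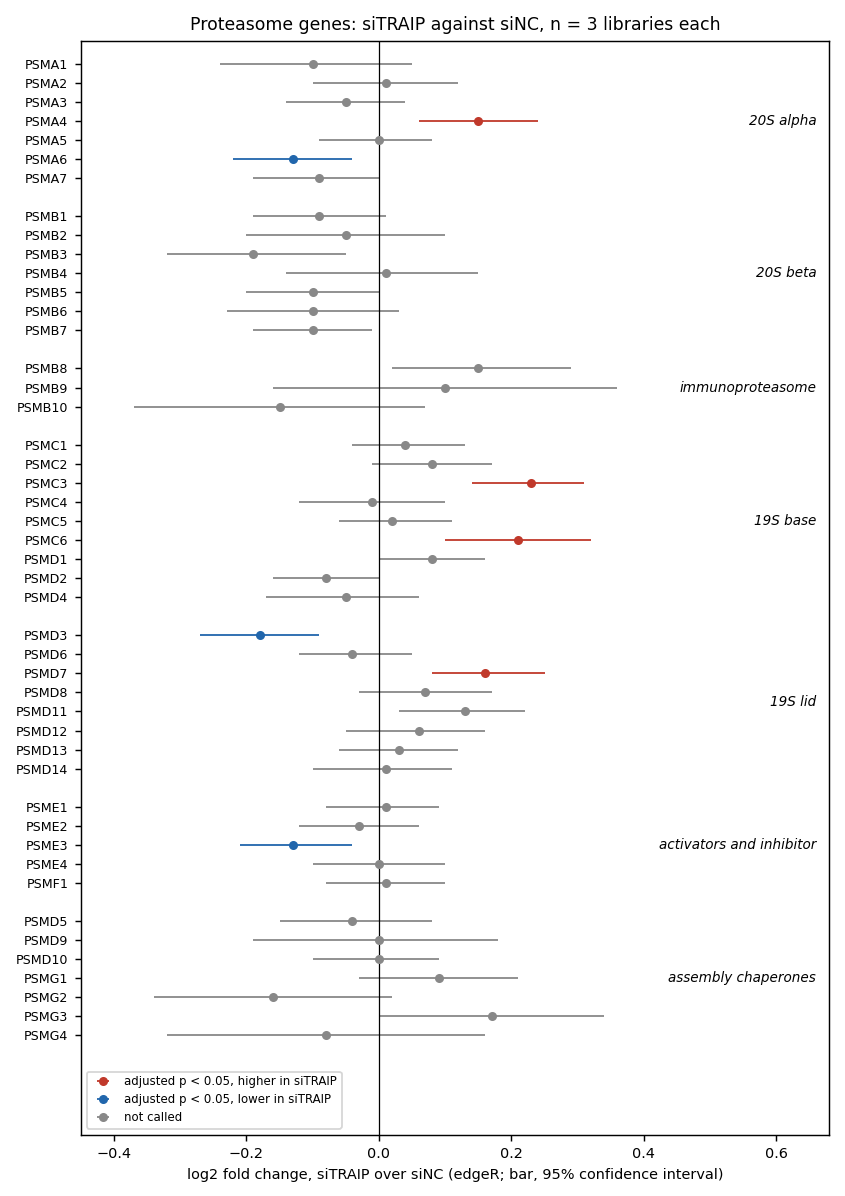
Log2 fold change of each proteasome gene, siTRAIP over siNC (x axis), by role (y axis); points are edgeR estimates from 3 libraries a group and bars are 95% confidence intervals. PSMC3, PSMC6, PSMD7 and PSMA4 (red) were called higher and PSMD3, PSMA6 and PSME3 (blue) lower; the other 39 (grey) were not called.

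In the 19S base, 2 of 9 genes rose and none fell (22.2% called, against 12.8% of all tested genes). Both encode ATPases of the ring that unfolds substrates. Shares over so few genes were not tested. PSMC3 (chromosome 11, 47418769 to 47426473, minus strand, GRCh38) had 617, 610 and 593 CPM in siTRAIP libraries, against 511, 516 and 528 CPM in siNC libraries. Every siTRAIP library was above every siNC library, and the log2 fold change was 0.23 (± 0.04 SE, adjusted p by edgeR = 3.88e-04), a call kept in all 14 alternatives run. PSMC6 (chromosome 14, 52707172 to 52728587) had 85.0, 80.5 and 94.5 CPM in siTRAIP and 74.9, 78.5 and 72.0 CPM in siNC libraries. Its highest value was siTRAIP replicate 3, and its log2 fold change of 0.21 (± 0.05 SE, adjusted p by edgeR = 0.0127) was no longer called without siNC replicate 1 (0.20, adjusted p = 0.0569) or siNC replicate 3 (0.17, adjusted p = 0.0807), nor by limma on the RPKM scales (0.14 and 0.13, adjusted p = 0.207 and 0.211). The other 4 ATPase genes had log2 fold changes from -0.01 (PSMC4) to 0.08 (PSMC2), none called. PSMC1 had 0.04 and is uncertain, since NRDE2 on the opposite strand shares 75.8% of its exonic bases and 13 pseudogenes are annotated. Of the non-ATPase base genes, PSMD2 averaged 1991 ± 42.6 CPM in siTRAIP and 2106 ± 37.2 CPM in siNC cells (SD, n = 3 each). These groups did not overlap, but the log2 fold change of -0.08 (SE 0.04) was not called (edgeR adjusted p = 0.212).

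In the 19S lid, 1 of 8 genes rose and 1 fell (25% called, against 12.8% of all tested genes). PSMD7, a scaffold partner of the deubiquitinating subunit (chromosome 16, 74296775 to 74306288), had 316, 302 and 301 CPM in siTRAIP libraries, against 270, 278 and 271 CPM in siNC libraries. The groups were apart, with a log2 fold change of 0.16 (± 0.04 SE, adjusted p by edgeR = 0.00835). Without siTRAIP replicate 1 (0.14, adjusted p = 0.0522) or siNC replicate 1 (0.15, adjusted p = 0.0678) it was not called, nor by limma on the RPKM scales (0.10 on both, adjusted p = 0.0912 and 0.0857), and AC009120.2 on the opposite strand shares 30.7% of its exonic bases. PSMD3, another scaffold subunit (chromosome 17, 39980797 to 39997960), had 156, 167 and 155 CPM in siTRAIP libraries, against 184, 178 and 181 CPM in siNC libraries. All siTRAIP libraries were below all siNC libraries; the log2 fold change of -0.18 (± 0.04 SE, adjusted p by edgeR = 0.00533) was called in all 14 alternatives, and no annotated gene shares its exons. PSMD14, the deubiquitinating enzyme itself, had a log2 fold change of 0.01 (95% confidence interval -0.10 to 0.11). PSMD11 had one of 0.13 (SE 0.05) that was not called (edgeR adjusted p = 0.0714) but passed without siTRAIP replicate 3 (0.16, adjusted p = 0.01), as did PSMD8 (0.12, adjusted p = 0.0315).

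The promoters of 4 called genes, of which 2 rose (PSMC3 and PSMD7) and 2 fell (PSMD3 and PSME3), are shown because NFE2L1, described further on, acts on proteasome genes through their promoters. Each line is the 250 bases before the RefSeq start (GRCh38.p14), 5′ to 3′ on the gene's strand. Capitals mark matches on either strand to TGACNNNGC (the core of the antioxidant response element that NFE2L1 and NFE2L2 bind), CCAAT (a box bound by NF-Y) and CACGTG (the E-box bound by MYC and MAX). The core of the interferon-stimulated response element was searched in the same way. The regions are chr11:47426440-47426689 (minus strand), chr16:74296564-74296813, chr17:39980557-39980806 and chr17:42833147-42833396 (plus strand).
PSMC3: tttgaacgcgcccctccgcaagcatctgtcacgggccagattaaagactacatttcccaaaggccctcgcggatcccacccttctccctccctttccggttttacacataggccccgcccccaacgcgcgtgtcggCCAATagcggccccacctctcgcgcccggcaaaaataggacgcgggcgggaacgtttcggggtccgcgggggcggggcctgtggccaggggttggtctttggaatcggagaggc
PSMD7: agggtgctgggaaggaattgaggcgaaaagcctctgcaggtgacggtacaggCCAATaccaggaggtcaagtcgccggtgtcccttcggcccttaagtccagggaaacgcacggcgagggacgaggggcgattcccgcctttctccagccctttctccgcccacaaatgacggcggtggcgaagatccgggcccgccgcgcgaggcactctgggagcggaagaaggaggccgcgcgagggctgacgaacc
PSMD3: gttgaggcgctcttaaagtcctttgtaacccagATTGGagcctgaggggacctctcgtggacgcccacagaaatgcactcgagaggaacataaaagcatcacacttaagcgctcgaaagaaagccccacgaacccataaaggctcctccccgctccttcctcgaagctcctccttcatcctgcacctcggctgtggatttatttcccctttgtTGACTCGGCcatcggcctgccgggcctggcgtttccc
PSME3: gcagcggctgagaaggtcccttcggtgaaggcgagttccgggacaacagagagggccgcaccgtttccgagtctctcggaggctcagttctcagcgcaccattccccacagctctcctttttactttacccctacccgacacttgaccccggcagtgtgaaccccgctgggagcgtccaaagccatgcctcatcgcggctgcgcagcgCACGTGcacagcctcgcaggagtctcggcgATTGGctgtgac
PSMC3 and PSMD7, which rose, hold a CCAAT match that begins at -114 and -198 relative to the start, and no match to the other words in these 250 bases. PSMD3, which fell, holds a TGACNNNGC match at -37 (and a reverse one at 33, past the bases shown) and a reverse CCAAT match at -217. PSME3, which also fell, holds CACGTG at -42 and a reverse CCAAT match at -12; its RefSeq start lies within the gene as listed in the deposited table. Over all 7 called genes, CCAAT was found in 2 of 4 that rose and 2 of 3 that fell. Of the 3 called genes not shown, PSMA4, which rose, holds the interferon-stimulated response element core at -240. PSMC6 and PSMA6 hold none of the searched words at the start searched. For PSMA6 this start also lies within the listed gene: the bases before it are chr14:35292067-35292316, and the listed gene begins at 35278633.

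Promoters of 40 of the 46 genes were found, each at the first listed start, from 250 bases before to 50 after it. TGACNNNGC was present in 13 of the 40 (32.5%), against 13.6% of all 27305 promoters in the table and 14.9% of those of tested genes. CCAAT was present in 18 (45%, against 35.7% of all and 36.7% of tested genes) and CACGTG in 3 (7.5%, against 7.43% of all and 10% of tested genes). The core of the interferon-stimulated response element was present in 6 (15%, against 3.65% of all and 2.96% of tested genes). Overlaps between these words were not treated apart. Of the 13 genes with TGACNNNGC, none rose and PSMD3 fell, with a median log2 fold change of -0.003; of the 27 without it, 4 rose and 2 fell, with a median of 0.009. PSMB3, PSMD9 and PSME3 held CACGTG, and their median log2 fold change was -0.127, with a fall called in PSME3.

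In the standard 20S core, 1 of 14 genes rose and 1 fell (14.3% called, against 12.8% of all tested genes). A negative log2 fold change was found in 11 of 14, against 50.4% of all tested genes. PSMA4, an alpha ring subunit (chromosome 15, 78540405 to 78552419), had 375, 374 and 388 CPM in siTRAIP libraries, against 324, 353 and 348 CPM in siNC libraries. The groups did not overlap, and the log2 fold change was 0.15 (± 0.04 SE, adjusted p by edgeR = 0.0243). The PSMA4 call was lost without siTRAIP replicate 1 (adjusted p = 0.0522) or 2 (0.0559) and without siNC replicate 1 (0.228) or 3 (0.0548), and by limma on the RPKM scales (0.09 on both, adjusted p = 0.224 and 0.22). PSMA6, another alpha subunit (chromosome 14, 35278633 to 35317493), had 134, 128 and 134 CPM in siTRAIP libraries, against 145, 146 and 142 CPM in siNC libraries. It fell by 0.13 on the log2 scale (± 0.04 SE, adjusted p by edgeR = 0.0396) with groups apart; leaving out each library in turn ended the call except for siTRAIP replicate 3 (adjusted p elsewhere from 0.0578 to 0.157). AL121594.1 on the same strand shares 14.1% of the exonic bases of PSMA6, which has 4 annotated pseudogenes.

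None of the 7 beta genes was called (edgeR; unadjusted p under 0.05 for 2, and 0 called with DESeq2), although 6 of them had negative log2 fold changes and the median was -0.098. PSMB3, a non-catalytic subunit, had 16.8, 17.1 and 17.5 CPM in siTRAIP libraries, against 20.8, 18.4 and 19.3 CPM in siNC libraries. Its groups did not overlap and its log2 fold change was -0.19 (± 0.07 SE, adjusted p by edgeR = 0.0632). PSMB5, the chymotrypsin-like subunit targeted by bortezomib, had 53.9, 55.6 and 59.2 CPM in siTRAIP and 60.8, 58.6 and 61.5 CPM in siNC libraries. PSMB6, the caspase-like subunit, had 22.2, 25.5 and 22.8 CPM in siTRAIP and 26.1, 24.6 and 24.9 CPM in siNC libraries. PSMB7, the trypsin-like subunit, had 113, 112 and 117 CPM in siTRAIP and 123, 118 and 125 CPM in siNC libraries. The groups of PSMB7 did not overlap and those of PSMB5 and PSMB6 did; none was called at a log2 fold change of -0.10 (edgeR adjusted p = 0.208 for PSMB5, 0.336 for PSMB6 and 0.152 for PSMB7). Without siTRAIP replicate 3, PSMB5 (-0.14, adjusted p = 0.0343) and PSMB7 (-0.12, adjusted p = 0.0428) were called.

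Summed over its 14 genes on the per-length scale, the standard core had 505, 530 and 531 in siTRAIP libraries, against 542, 539 and 561 in siNC libraries, a ratio of means of 0.954. On the same scale the ratio was 1.026 for the base, whose groups overlapped, and 1.046 for the lid, whose groups did not, but 0.984 and 1.004 on the deposited RPKM scale, where the core ratio was 0.915. The quotient of core to cap does not depend on library scaling. The core sum was 39.2%, 41.0% and 42.3% of the 19S sum in siTRAIP libraries, against 43.7%, 43.5% and 45.03% in siNC libraries, so that every siTRAIP library was lower. Without PSMD2 in the 19S sum these values were 54.8%, 57.6% and 59.0% in siTRAIP libraries, against 63.8%, 62.6% and 65.4% in siNC libraries. With each gene weighted equally, the mean log2 level of the core minus that of the cap was -1.110 ± 0.034 in siTRAIP and -1.006 ± 0.016 in siNC cells (SD, n = 3 each), a difference of -0.104. It was -0.097 with the 6 called genes of core and cap left out. These quotients were formed after the values had been seen and are given without a test.

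In the immunoproteasome none of 3 genes was called (edgeR; unadjusted p under 0.05 for PSMB8 alone, and 0 called with DESeq2). PSMB8, the inducible counterpart of PSMB5, had 16.9, 17.8 and 17.8 CPM in siTRAIP libraries, against 15.9, 15.2 and 16.3 CPM in siNC libraries. Its groups did not overlap, and its log2 fold change was 0.15 (SE 0.07, 95% confidence interval 0.02 to 0.29, edgeR adjusted p = 0.145). PSMB8-AS1 and PSMB9 on the opposite strand share 20.6% of its exonic bases in GENCODE v29. That annotation gives PSMB8 2997 exonic bases, against a listed length of 2006, so the share for the counted exons may differ. PSMB9, the counterpart of PSMB6, had 3.32, 4.18 and 4.10 CPM in siTRAIP and 4.01, 3.65 and 3.27 CPM in siNC libraries, and its groups overlapped. The PSMB9 log2 fold change was 0.10 (95% confidence interval -0.16 to 0.36, edgeR adjusted p = 0.7). PSMB10, the counterpart of PSMB7, had 4.87, 5.65 and 5.38 CPM in siTRAIP and 6.45, 5.96 and 5.31 CPM in siNC libraries, also with overlap. Its level is uncertain, since AC040162.1 on the same strand shares 34.8% of its exonic bases. The PSMB10 log2 fold change was -0.15 (95% confidence interval -0.37 to 0.07, edgeR adjusted p = 0.411).

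Per kilobase, PSMB8 amounted to 27.6%, 28.1% and 26.4% of PSMB5 in siTRAIP libraries, against 23.0%, 22.8% and 23.3% in siNC libraries. These ratios did not overlap between groups. Their size, unlike the comparison of groups, rests on the listed PSMB8 length of 2006 bases, which is shorter than in GENCODE v29. PSMB9 amounted to 7.75% ± 0.718 of PSMB6 in siTRAIP and 6.80% ± 0.556 in siNC cells, and PSMB10 to 4.48% ± 0.363 of PSMB7 in siTRAIP and 4.67% ± 0.506 in siNC cells (SD, n = 3 each), both with overlapping groups. The inducible genes together made up 10.3% ± 0.312 of the 6 catalytic transcripts in siTRAIP and 9.25% ± 0.244 in siNC cells (SD, n = 3 each), without overlap of the groups. The standard subunits thus predominated in both groups.

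**Figure D3:**
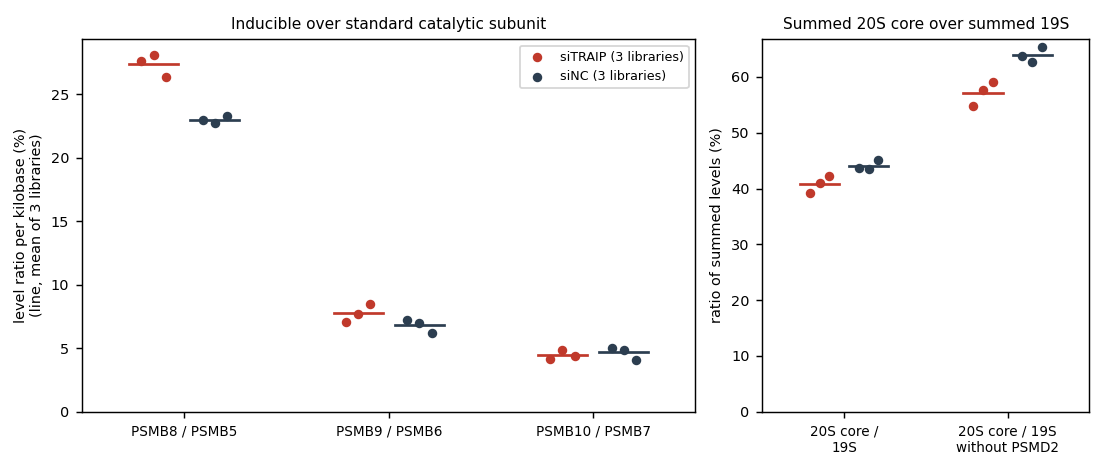
Left, level of each inducible catalytic subunit gene as a percentage of the standard one it replaces (y axis, ratio per kilobase); right, summed 20S core level as a percentage of the summed 19S level, with and without PSMD2. Points are libraries and lines are means of 3; PSMB8 over PSMB5 is higher and the core over the 19S cap lower in every siTRAIP library than in every siNC library.

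Of 5 genes for proteins that bind the ends of the core, 1 fell and none rose (20% called, against 12.8% of all tested genes). PSME3, the nuclear activator PA28-gamma (chromosome 17, 42824385 to 42843758), had 244, 248 and 253 CPM in siTRAIP libraries, against 272, 268 and 274 CPM in siNC libraries. The groups were apart and the log2 fold change was -0.13 (± 0.04 SE, adjusted p by edgeR = 0.0372), but leaving out each library in turn ended the call except for siTRAIP replicate 3 (adjusted p elsewhere from 0.0881 to 0.131). BECN1 on the opposite strand shares 5.82% of its exonic bases. PSME1 and PSME2, which form the interferon-induced activator PA28-alpha-beta, PSME4, the activator PA200, and PSMF1, the inhibitor PI31, had log2 fold changes from -0.03 to 0.01. Their 95% confidence intervals lay between -0.12 and 0.10. None of the 7 assembly chaperone genes was called (edgeR; unadjusted p under 0.05 for 0, and 0 called with DESeq2). PSMG3 had the smallest p-value among them, with 12.2, 12.6 and 10.7 CPM in siTRAIP libraries, against 9.75, 10.7 and 11.0 CPM in siNC libraries. Its groups overlapped, and its log2 fold change of 0.17 (± 0.08 SE, adjusted p by edgeR = 0.212) passed only without siTRAIP replicate 3 (0.24, adjusted p = 0.0493).

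Among 21 genes of proteasome cofactors and regulators outside the PSM symbols, 2 rose and 2 fell (19%, against 12.8% of all tested genes), and groups did not overlap for 10 (47.6%, against 29.1%). NFE2L1, the activator of proteasome genes (chromosome 17, 48048329 to 48061487), had 526, 534 and 514 CPM in siTRAIP libraries, against 382, 386 and 369 CPM in siNC libraries. The groups were far apart and NFE2L1 rose by a log2 fold change of 0.47 (± 0.04 SE, adjusted p by edgeR = 2.1e-08), in all 14 alternatives. Its product is activated by processing of the protein, which transcript counts do not measure: the genes of the protease DDI2 and the glycanase NGLY1 that act in this step gave 0.08 ± 0.05 and -0.10 ± 0.06 (log2 fold change ± SE), neither called (edgeR adjusted p = 0.397 and 0.317).

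SEM1, the smallest lid subunit, listed as SHFM1, had 420, 432 and 463 CPM in siTRAIP libraries, against 375, 376 and 417 CPM in siNC libraries. The groups were apart and SHFM1 rose by 0.17 on the log2 scale (± 0.05 SE, adjusted p by edgeR = 0.0187). This call was lost without siTRAIP replicate 2 (0.18, adjusted p = 0.0512) and without siNC replicate 1 (0.14, adjusted p = 0.138) or 2 (0.14, adjusted p = 0.135), and on both RPKM scales (0.11, adjusted p by limma = 0.288 and 0.29). NFE2L2, the related antioxidant factor, fell by 0.18 (± 0.05 SE, adjusted p by edgeR = 0.00927) and ZFAND5, an activator of the proteasome, by 0.17 (± 0.06 SE, adjusted p by edgeR = 0.0413) on the log2 scale; the first call was lost without siTRAIP replicate 1 (adjusted p = 0.0547) or siNC replicate 3 (0.0587), and the second in 9 of 14 alternatives. VCP, the ATPase that extracts ubiquitinated proteins, had 343, 321 and 340 CPM in siTRAIP libraries, against 372, 372 and 353 CPM in siNC libraries. Its groups did not overlap, and its log2 fold change of -0.13 (± 0.04 SE, adjusted p by edgeR = 0.0506) passed the threshold in 8 of 14 alternatives, among them the fits without siTRAIP replicate 3 (-0.14, adjusted p = 0.0102) and without siNC replicate 3 (-0.16, adjusted p = 0.0461). USP14, a deubiquitinating enzyme of the proteasome, had a log2 fold change of -0.10 (± 0.04 SE, adjusted p by edgeR = 0.164) and was called without siTRAIP replicate 3 (-0.13, adjusted p = 0.0244).

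**Figure D4:**
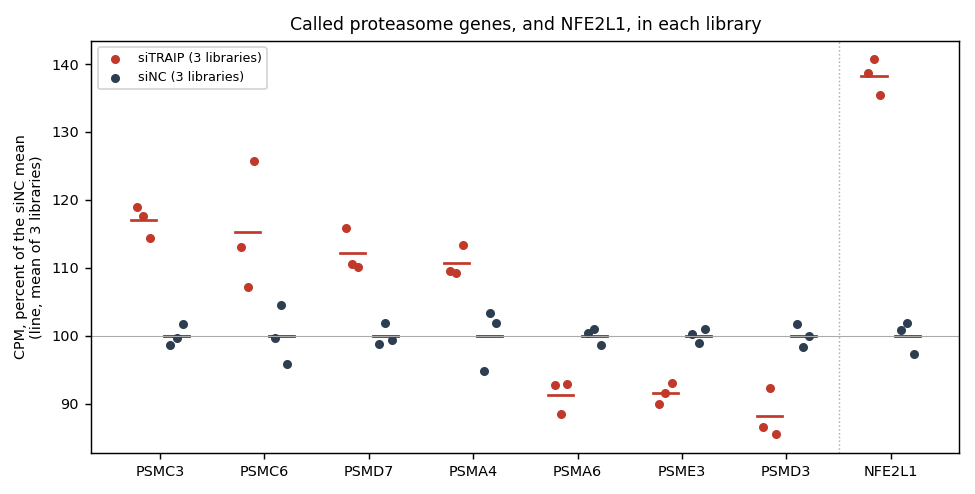
CPM of the 7 called proteasome genes and of NFE2L1 in each library, as a percentage of the gene's siNC mean (y axis); points are libraries, lines are means of 3 and genes are along the x axis. For each gene the siTRAIP and siNC points do not overlap, and NFE2L1 lies farther from its siNC mean than any of the 7.

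Of 14 genes of interferon-induced antigen processing, 2 fell and none rose (14.3%, against 12.8% of all tested genes), a share near the background. Their median log2 fold change was -0.064, against -0.002 for all tested genes. IRF1, a transcription factor that acts on the PSMB9 and TAP1 promoter region, had 11.4, 11.2 and 10.2 CPM in siTRAIP libraries, against 13.9, 15.04 and 15.6 CPM in siNC libraries. All siTRAIP values were lower, and IRF1 fell by 0.45 on the log2 scale (± 0.08 SE, adjusted p by edgeR = 2.15e-04) in all 14 alternatives, with 22% of its exonic bases shared with opposite-strand genes. TAP2, a subunit of the peptide transporter, fell by 0.16 on the log2 scale (± 0.05 SE, adjusted p by edgeR = 0.0444), which held in 7 of 14 alternatives. The TAP2 call was lost without siTRAIP replicate 2 (adjusted p by edgeR = 0.151) or 3 (0.098) and without siNC replicate 1 (0.25) or 2 (0.094). AL669918.1 on the same strand shares 32.3% of the exonic bases of TAP2. TAP1, the other subunit, whose gene neighbours PSMB9, had a log2 fold change of -0.07 (95% confidence interval -0.30 to 0.17, edgeR adjusted p = 0.79).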

How the data were processed

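RNA sequencing libraries of T24 cells, 3 of siTRAIP and 3 of siNC, were grouped by their titles. The authors deposited a table of raw gene counts and a table of RPKM; the RPKM could be recomputed from the counts, the listed lengths and the column sums (relative difference up to 1.3e-06). Per the submitters' processing notes, Trimmomatic 0.36, GRCh38 and featureCounts of Subread 1.5.1 were used; the sources used here do not give an aligner, annotation release or strand setting, so opposite-strand overlaps (exons of GENCODE v29) make a count uncertain. Of counts from 1 to 10, 70.2% were even, against 50.8% above 1000, so both reads of a pair may have been counted.

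Counts were tested with edgeR 4.0.16 in R 4.3.3 (filterByExpr, TMM, robust quasi-likelihood fit, 2-sided, Benjamini-Hochberg adjustment over 18685 genes, threshold 0.05); the common biological coefficient of variation was 5.73%. The procedure was tested on simulated data with changes larger than those of the called proteasome genes, so this test does not cover changes of their size. The SE is the log2 fold change divided by the square root of F. Alternatives were DESeq2 1.42.0, RLE factors, other count filters, the replicate block, each library left out, halved counts, and limma 3.58.1 on log2(RPKM + 0.1) and log2(RPKM + 1). Members, roles and lists were chosen with earlier results of these data known. Of the regulator list, 1 gene is not reported here, and the list is counted without it. Named genes were TRAIP, called members and companions, catalytic subunits, NFE2L1, TAP1 and the smallest p per role; others are named for level or after their values were seen.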

Additional observations from a re-analysis of the deposited data

How the results depend on the processing

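The counts by role rest on few genes and small changes. Member counts per library ran from 126 to 134086, and precision was lower for genes with low counts: the median SE of the log2 fold change was 0.105 for the immunoproteasome genes and 0.041 for the base genes. With DESeq2, RLE factors, other count filters and halved counts, 7 proteasome genes were called, 4 higher and 3 lower. Of 98 values of the 7 called genes under alternatives, 72 kept the call, 26 lost it and none changed sign; of 546 values of genes not called, 7 gained it and 51 changed sign, in 17 genes, none of them called in either fit. With 1 library left out, and so fewer samples, 2 to 12 genes were called, 1 to 7 higher and 1 to 5 lower, with 0 to 4 in the core, 1 to 2 in the base, 1 to 4 in the lid, 0 to 1 among activators and 0 to 1 among chaperones. Of all tested genes, 1480 to 2622 were called in these fits, against 2393 in the main fit, so the number called varied beyond the proteasome genes. On both RPKM scales 5 proteasome genes were called, of which 1 was higher, with 1 in the base and 1 in the lid. Fewer of all tested genes were also called on these scales than in the main fit. PSMC6 (0.14 and 0.13), PSMA4 (0.09 and 0.09) and PSMD7 (0.10 and 0.10) lost the call there, and PSMB3 was called (-0.24 and -0.23). These scales leave out the TMM factors, 0.971 to 0.987 in siTRAIP and 1.011 to 1.029 in siNC libraries, and set the median log2 fold change of all tested genes at -0.058 and -0.032. From the RPKM sums the siTRAIP to siNC ratio was 0.915 for the core, 0.984 for the base and 1.004 for the lid.

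Libraries with the same number had deviations from their group means that correlated at -0.0076, -0.018 and 0.0014, so the numbers were not taken as pairs. In a fit with a replicate block, 5 proteasome genes were called, 4 higher and 1 lower; the count was 1 in the core and 0 among activators, with PSMA6 (adjusted p = 0.0769) and PSME3 (0.0781) above the threshold.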

Other observations

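Across all proteasome genes the level order hardly differed between the groups: the Spearman rho of the 46 per-length levels in siTRAIP and in siNC cells was 0.998, over groups that share the cell line and the listed lengths. The level in siNC cells and the log2 fold change had a Spearman rho of 0.03 over the 46 genes. Summed over the 31 genes of core, base and lid, the per-length level was 1795, 1823 and 1787 in siTRAIP libraries, against 1783, 1778 and 1807 in siNC libraries, with overlapping groups.

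In the main fit, called members of the alpha ring and of the lid differed in direction. PSMA4 rose and PSMA6 fell within the alpha ring, and PSMD7 rose and PSMD3 fell within the lid. Of these calls only that of PSMD3 held in all 14 alternatives. Those of PSMA4 and PSMA6 were lost in 6 each and that of PSMD7 in 4. PSMD4, a ubiquitin receptor of the base, had 66.2, 66.8 and 56.7 CPM per kilobase in siTRAIP libraries, against 67.9, 65.4 and 63.7 in siNC libraries, and PSMD12, a lid scaffold, had 30.5, 31.4 and 35.3 in siTRAIP libraries, against 31.3, 31.5 and 30.8 in siNC libraries. In both genes siTRAIP replicate 3 lay apart from the other libraries, in opposite directions, and neither gene was called by edgeR (adjusted p = 0.599 and 0.54).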
